A study of Apis mellifera with 36 samples.

Results

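In brain tissue of worker honey bees (Apis mellifera), 100 genes stood apart, by the means of their groups, in bees that answered neither an intruder nor a queen larva. They are 100 of the 15314 gene IDs counted in the series, and 66 had their higher mean and 34 their lower mean in unresponsive bees. The members were chosen by the expression values of all 36 bees themselves. CPM is the number of counts per 1000000 gene counts of a library, and genes entered with a mean of at least 1 CPM. On the scale log2(CPM + 1), unresponsive bees were set against nurses and against guards in each of 2 colonies, which gives 4 differences per gene. Genes with all 4 differences of the same sign were ranked by the smallest of the 4, and the first 100 were taken. The rule left 15 IDs out by name, and 10341 genes could have entered. The differences between unresponsive bees and the other types are therefore a description of the choice and carry no test.

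Mushroom bodies are paired centres of the insect brain in which information from several senses is joined and memories are formed. Worker honey bees divide the work of the colony among themselves, and young adults mostly feed larvae and tend the nest while defence falls to guards, although bees of the same age differ widely in what they respond to. Deformed wing virus (DWV) is an RNA virus of bees that also multiplies in the brain. The deposited tables give gene IDs without names, and the reference table held 0 of the 15314 IDs. No role can be stated for any member, no sequence is shown, and at most a pair of IDs per direction is named in each comparison. Markers of neurons, glia, fat body or glands could not be looked up for the same reason, so the labelled tissue was not checked against them.

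The study held 12 unresponsive bees, 12 nurses and 12 guards, each type with 6 bees from colony 5 and 6 from colony 6, all aged 7 days and each sequenced as its own library. The labels name no treatment, and the 3 types were set by behaviour: unresponsive bees showed no overt response, nurses nursed the larva in both of their tests, and guards attacked the intruder in both of theirs. The queen of each colony carried sperm of 1 drone, so colony stands for family and rearing at once and the series holds 2 such families. The dissected piece held mostly mushroom bodies with central brain. Bees are named here by their type and the number in their title.

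Libraries held 16.2 to 27.5 M (mega) gene counts, so that 1 CPM stood for at least 16.2 counts. The 3 libraries numbered 213 had at least 23.3 M, and all others at most 22.7 M. DWV load, in virus reads per 1000000 total reads (RPM) from the labels, had separate levels: 16 bees had 6673 to 28967 RPM and 20 bees had 2.60 to 63.9 RPM. High load was found in 6 of 6 unresponsive bees, 2 of 6 nurses and 5 of 6 guards of colony 5, and in 0 of 6 unresponsive bees, 0 of 6 nurses and 3 of 6 guards of colony 6. Low load was thus found in 0 unresponsive bees of colony 5, and high load in 0 of colony 6.

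The differences that earned a gene its place were small for most of the 100. Among the 66 higher members, the median difference was 0.20 from nurses and 0.22 from guards in colony 5, and 0.17 from nurses and 0.26 from guards in colony 6, all on the log2(CPM + 1) scale. Among the 34 lower members the medians were -0.33 and -0.24 in colony 5 and -0.29 and -0.32 in colony 6, in the same order. The smallest of the 4 differences exceeded 0.5 in 1 member and 0.25 in 10, and it lay below 0.2 in 83. A log2 difference of 0.25 is a fold of 1.19. The last gene inside the limit had a smallest difference of 0.1132 and the first outside it 0.1130, so the limit of 100 falls in no gap.

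**Figure D1:**
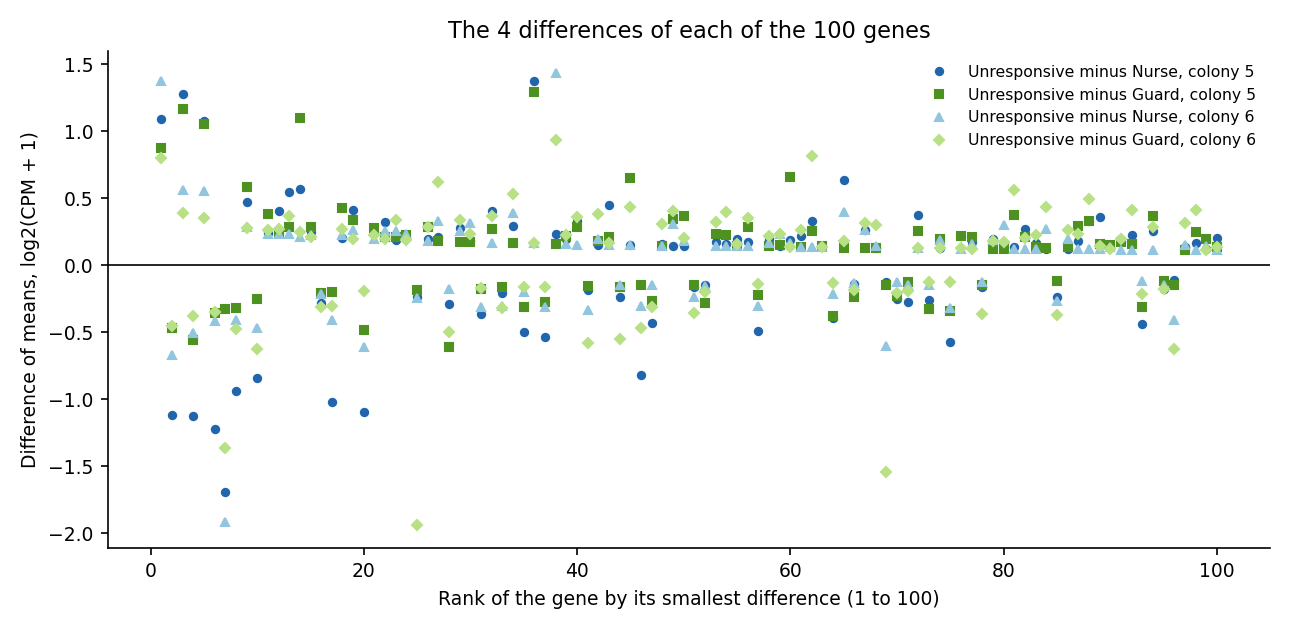
Each of the 100 genes is shown by its 4 differences of group means in log2(CPM + 1), unresponsive bees minus nurses or guards in colony 5 or 6, against its rank by the smallest of the 4. Beyond the first 10 genes the smallest difference stays under 0.25, while 14 genes have some difference over 1 in size.

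No member separated unresponsive bees from the rest. In 0 of the 100 did the 6 unresponsive bees of a colony all lie beyond all 12 nurses and guards of that colony, in either colony. The SD of log2(CPM + 1) between bees of the same type and colony exceeded the smallest difference in 97 of the 100, and the smallest difference was 0.47 times that SD in the median member. That SD had a median of 0.30 over the members, against 0.14 over the 10341 genes. No shares over all genes are given here for the counts of 0 and 97, so both describe the members alone.

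Of the higher members with a mean of at least 4 CPM, GB53119 had the largest smallest difference. In colony 5 it ran from 0.229 through a median of 1.15 to 41.2 CPM in unresponsive bees, from 0.0960 through 0.772 to 9.80 CPM in nurses, and from 0.0595 through 0.350 to 19.5 CPM in guards. In colony 6 it ran from 0.0430 through 9.24 to 31.2 CPM in unresponsive bees, from 0 through 0.711 to 11.0 CPM in nurses, and from 0 through 2.72 to 12.4 CPM in guards. The groups overlapped over most of their ranges, and the level in unresponsive bees came in 2 kinds: Unresponsive 32, 40, 205, 230 and 237 had 17.6 to 41.2 CPM, and the other 7 unresponsive bees had at most 1.31 CPM. Its means were 12.3 ± 15.3 CPM in unresponsive bees, against 2.36 ± 3.85 CPM in nurses and 3.96 ± 6.03 CPM in guards (SD, n = 12 each). The 4 differences were 1.09 and 0.88 in colony 5 and 1.37 and 0.80 in colony 6, from nurses and from guards each time. GB53119 stayed among the 100 without any 1 bee, although its smallest difference was 0.24 without Unresponsive 32, against 0.80 with all bees.

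GB53115, next of the higher members, was high in 4 of the same 5 unresponsive bees. In colony 5 it ran from 0.344 through a median of 0.491 to 51.8 CPM in unresponsive bees, from 0.0524 through 0.300 to 8.51 CPM in nurses, and from 0 through 0.173 to 16.7 CPM in guards. In colony 6 it ran from 0 through 2.23 to 16.1 CPM in unresponsive bees, from 0 through 1.04 to 5.88 CPM in nurses, and from 0.0533 through 0.591 to 49.1 CPM in guards. Guard 222, at 49.1 CPM, lay above every bee but Unresponsive 32. Its place depended on single bees: its smallest difference, counted as positive in the direction of choice, was -0.08 without Unresponsive 205 and 0.07 without Unresponsive 230, against 0.39 with all bees.

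Each of the 2 leading lower members was high in 4 bees, none of them unresponsive. GB49504 had 111 CPM in Nurse 32, 39.5 CPM in Nurse 230, 23.9 CPM in Guard 205 and 13.7 CPM in Guard 5, which puts 1 such bee in each of the 4 groups of nurses and guards. The highest other bee was Unresponsive 230 at 3.24 CPM. Group medians lay at 0.199 CPM in unresponsive bees, against 0.254 CPM in nurses and 0.180 CPM in guards of colony 5, and at 0.0738, 0.274 and 0.130 CPM in colony 6, in the same order. A median of 0.274 CPM is a handful of reads in a library. The group means, 0.469 ± 0.906 CPM in unresponsive bees, against 12.8 ± 33.0 CPM in nurses and 3.25 ± 7.56 CPM in guards (SD, n = 12 each), followed the 4 bees. Without Guard 205 the smallest difference, counted as positive in the direction of choice, was -0.29, and without Nurse 230 it was -0.17, against 0.45 with all bees.

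GB42557 had 97.0 CPM in Nurse 32, 22.9 CPM in Nurse 230, 15.3 CPM in Guard 205 and 13.1 CPM in Guard 5, the same 4 bees as GB49504. Its group medians ran from 0.205 to 0.315 CPM over all 6 groups, and unresponsive bees reached 2.64 CPM in Unresponsive 230 and 0.512 CPM in the next. Its smallest difference was -0.25 without Guard 205 and -0.20 without Nurse 230, against 0.38 with all bees. Both genes left the 100 when any of those 4 bees was left out. Nurse 32, Nurse 230 and Guard 205 had low DWV load, at 4.99 to 63.2 RPM, and Guard 5 had high load, at 10944 RPM, and the part of virus load in these levels was not tested.

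**Figure D2:**
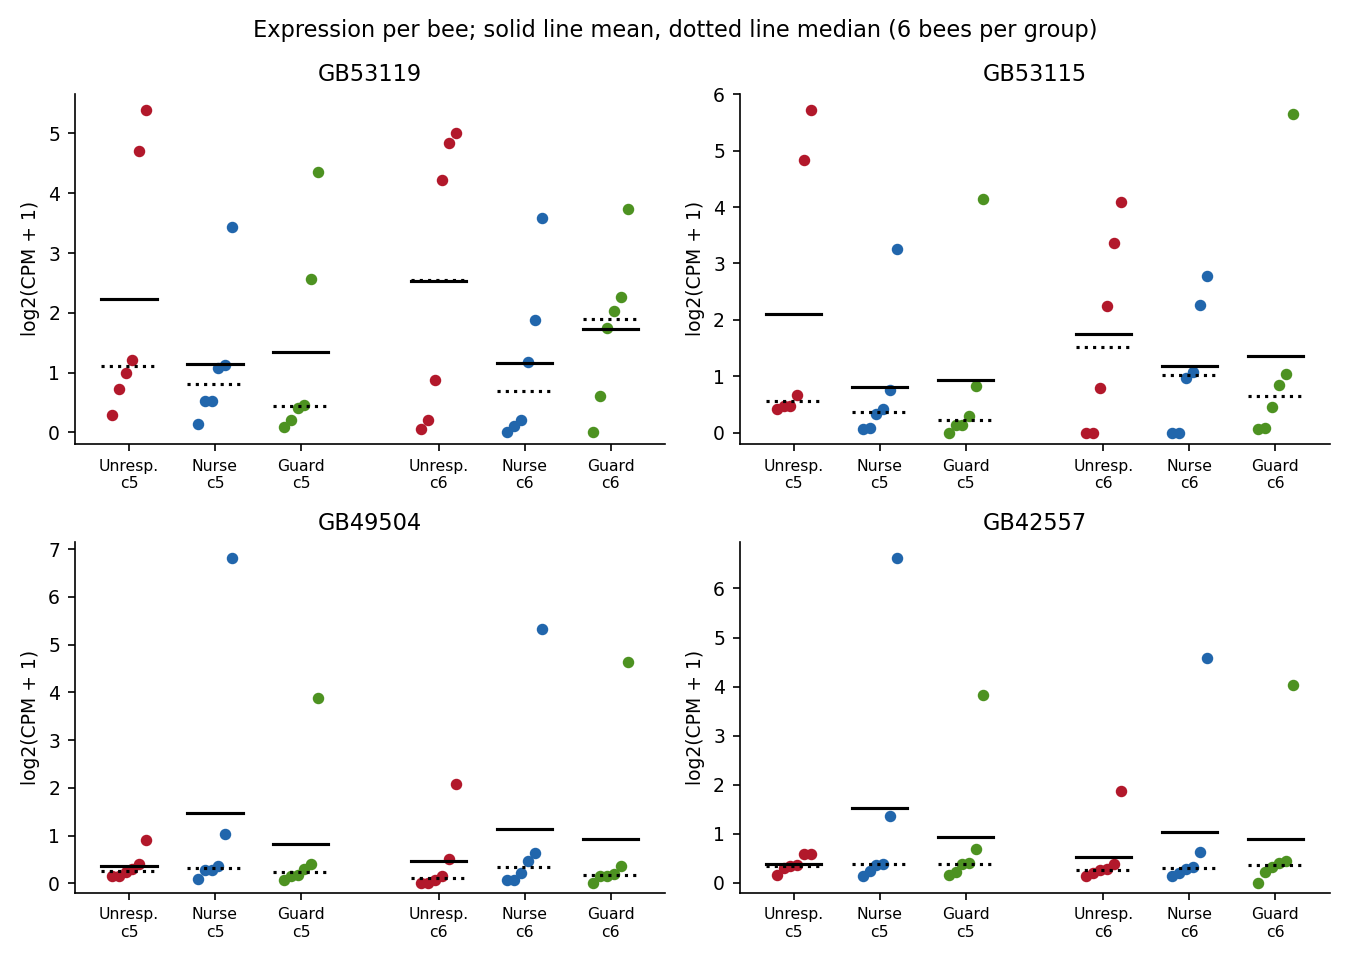
Points are single bees, 6 per group, by colony (c5, c6) and type, in log2(CPM + 1); solid lines are group means and dotted lines group medians. GB49504 and GB42557 have 1 high bee in each group of nurses and guards with medians near 0, while GB53119 is high in 5 of 12 unresponsive bees.

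These genes belong to small sets that went up and down in the same bees. After the mean of each type and colony was taken off, 30 of the 4950 pairs of members had a Pearson r of at least 0.8, and they joined 14 members into 3 sets. That is 0.606% of the members' pairs, against 0.0209% of the pairs among all 10341 genes, while the median size of r was 0.15 for members and 0.18 for all genes. The r values are descriptions over 36 bees that share libraries and depth. The choice used the same values and can bring in together genes that are high in the same bees. The higher share among the members is therefore a description of the choice as well. Most members, 86 of 100, belonged to no set.

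GB49504 led the largest set, 8 lower members that include GB42557. Pearson r over its 28 pairs ran from 0.77 to 0.99 with a median of 0.97, and Spearman's rho from 0.40 to 0.94 with a median of 0.77. Without Nurse 32 and Nurse 230, the 2 bees farthest from the median, r ran down to 0.57 with a median of 0.93. The mean level of the 8 genes was 6.77 in Nurse 32, 5.00 in Nurse 230, 4.46 in Guard 205 and 4.07 in Guard 5, in log2(CPM + 1), against 2.30 in Unresponsive 230, the next bee. Its group medians ran from 0.96 to 1.06 in all 6 groups, so the typical bee of each type had about the same level. Besides its 7 fellow members at an r of at least 0.8, GB49504 had 3 genes outside the 100 at that r. Of the 14 IDs left out by the rule that reached 1 CPM, 0 did, with a highest r of 0.12.

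GB53119, GB53115 and another, rarer gene formed a set of higher members with r of 0.75 to 0.89. Its mean level was 5.14 in Unresponsive 32 and 4.47 in Unresponsive 40, the highest of all bees. Unresponsive 205 followed at 3.69, Unresponsive 230 at 3.27 and Guard 222 at 3.24. In each of the 6 groups at least 1 bee reached 2.65 in log2(CPM + 1), so the high level was no feature of unresponsive bees alone.

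The third set held 3 lower members, with r of 0.70 to 0.94. It was led by GB49117, the most abundant of the 100. GB49117 ran from 436 through a median of 499.8 to 793 CPM in unresponsive bees of colony 5, from 646 through 762 to 861 CPM in nurses and from 526 through 573 to 956 CPM in guards. In colony 6 it ran from 370 through 478 to 784 CPM in unresponsive bees, from 467 through 621 to 708 CPM in nurses and from 395 through 590 to 863 CPM in guards. The groups overlapped in both colonies, with means of 537 ± 134 CPM in unresponsive bees, against 677 ± 112 CPM in nurses and 643 ± 188 CPM in guards (SD, n = 12 each). GB49117 was singled out after its values were seen.

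Other members differed by little but more evenly between bees. The 4 named here are 2 higher and 2 lower members. Each pair comes first in its direction in the order of the count model for unresponsive bees against the mean of nurses and guards. That order rests on the same bees as the choice, so their values are a description. GB42538, a lower member, ran from 11.0 through a median of 12.9 to 14.1 CPM in unresponsive bees of colony 5, from 13.2 through 14.6 to 15.4 CPM in nurses and from 12.9 through 14.1 to 15.6 CPM in guards. In colony 6 it ran from 9.0 through 11.1 to 12.6 CPM in unresponsive bees, from 11.4 through 13.1 to 13.8 CPM in nurses and from 12.5 through 13.6 to 17.4 CPM in guards. Of the 12 unresponsive bees, 8 lay below every nurse and guard of their colony, the most for any of the 100 genes. No such count over other genes is given here. The means were 11.8 ± 1.56 CPM in unresponsive bees, against 13.6 ± 1.19 CPM in nurses and 14.2 ± 1.42 CPM in guards (SD, n = 12 each), a log2 difference of -0.24.

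GB47469, also lower, stood at 11.6 ± 1.3 CPM in unresponsive bees, against 13.5 ± 1.95 CPM in nurses and 13.7 ± 1.77 CPM in guards (SD, n = 12 each). Its ranges overlapped, at 9.57 to 13.6 CPM in unresponsive bees, 10.2 to 16.7 CPM in nurses and 11.5 to 17.8 CPM in guards. GB49439, higher, stood at 3.94 ± 1.19 CPM in unresponsive bees, against 2.71 ± 0.514 CPM in nurses and 2.92 ± 0.759 CPM in guards (SD, n = 12 each). Its lowest unresponsive bee had 2.51 CPM, against 3.54 CPM in the highest nurse and 4.52 CPM in the highest guard. GB52734, higher, stood at 2.30 ± 0.70 CPM in unresponsive bees, against 1.78 ± 0.357 CPM in nurses and 1.63 ± 0.433 CPM in guards (SD, n = 12 each). Both of these higher genes stayed among the 100 whichever bee was left out.

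The count model, edgeR's quasi-likelihood test with colony as a term, called 0 of the members for this contrast at an adjusted p of 0.05, and 0% of the 10948 genes tested. The test covered 95 of the 100 members. The low-count filter removed 5, among them GB49504 and GB42557, which reach enough reads in too few bees. At an unadjusted p under 0.05 stood 71 of the 95, which were chosen for this difference, and 896 of the 10948 genes. DESeq2 called 0 of the members and 0.0287% of 13943 genes. For the members these counts describe genes picked for this very difference, and nothing is read from them.

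Low expression was common among the members. The median member had a mean of 5.45 CPM, against 41.2 CPM over the 10341 genes, with a range of 1.02 to 619 CPM. Of the 100, 36 had a mean of 1 to 4 CPM, where 13.1% of all genes lie, 43 had 4 to 20 CPM, where 20.3% lie, and 21 had at least 20 CPM, where 66.6% lie. Below 4 CPM, 27 members were higher and 9 lower, and at 20 CPM or above 11 were higher and 10 lower. Within each band of level the bees varied at least as much for the members as for all genes. The median SD within type and colony, in log2(CPM + 1), was 0.28 against 0.27 below 4 CPM. It was 0.36 against 0.21 from 4 to 20 CPM, and 0.30 against 0.11 above that. Ranking genes by differences of group means favours those that vary between bees, so the higher SDs follow in part from the choice.

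The highest values were unevenly spread over bees. Among the 66 higher members the highest of all 36 values was in an unresponsive bee for 56, in a nurse for 2 and in a guard for 8. Unresponsive 32 held 18 of the 66 and Unresponsive 19 held 9. Among the 34 lower members the highest value was in an unresponsive bee for 1, in a nurse for 13 and in a guard for 20, and Nurse 32 held 9. These counts follow in part from the choice of the genes. The library of Unresponsive 32 held 17.6 M gene counts, within the range of the other libraries. Summary rows, which stayed out of the gene counts, made up 30.3% of its counts, the lowest share of the 36 libraries. The part of the library in these values was not tested.

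Membership was read again without each bee in turn. Between 70 and 94 of the 100 genes were still among the first 100, the fewest without Unresponsive 36 and the most without Guard 222. Only 7 of the 100 stayed in through all 36 such readings, 6 higher and 1 lower, and 2 of the first 10 were among them. All 4 signs held in all 36 readings for 77 members. With the mean of the middle 4 bees of each group, which drops the highest and the lowest bee, 94 members kept their 4 signs and 55 stayed among the first 100, 4 of the first 10 included. That reading was chosen after the single high bees had been seen. With group medians in place of means, 80 kept their signs and 42 stayed.

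**Figure D3:**
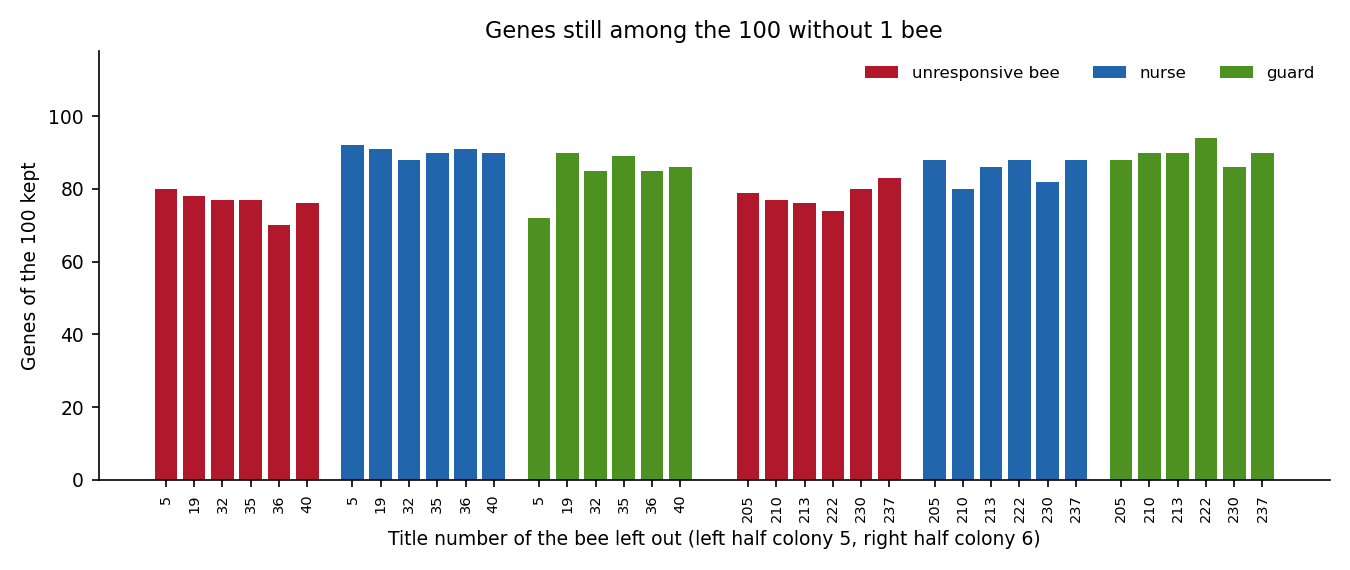
Bars give how many of the 100 genes were still among the first 100 when the bee on the axis was left out, coloured by its type. Counts run from 70 without Unresponsive 36 to 94 without Guard 222.

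Whether the genes chosen in a colony behave alike in the other was read on bees that the choice had not used. The 100 genes with the largest smallest difference in colony 5 alone had both colony 6 differences of the same sign as chosen in 33 cases, both opposite in 21 and mixed in 46. Over all 6917 genes whose colony 5 differences shared a sign, the same signs appeared in colony 6 for 34.1%, and the opposite for 24.0%. Chosen in colony 6 alone, 35 of 100 had the same signs in colony 5 and 22 the opposite, where all 5914 such genes gave 39.9% and 28.1%. The shares of same signs among the chosen genes were thus no higher than the background in either direction.

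The sizes in the colony that was read were small. Counted as positive in the direction of choice, the mean of a gene's differences from nurses and guards had a median of -0.00251 in colony 6 over the genes chosen in colony 5, against 0.55 in colony 5 itself. For the genes chosen in colony 6 it was 0.05 in colony 5, against 0.47 in colony 6. Over all genes whose differences shared a sign in the colony of choice, the median was 0.015 when read in colony 6. It was 0.011 when read in colony 5. In the count model fitted to the colony that was read, 0 of 95 genes chosen in colony 5 were called in colony 6, with 4 at an unadjusted p under 0.05, and 0 of 92 chosen in colony 6 were called in colony 5, with 8. The model called 0% of 10954 genes in colony 6 and 0% of 10958 in colony 5. At an unadjusted p under 0.05 stood 4.21% of the chosen genes against 4.87% of all genes in colony 6, and 8.70% against 6.66% in colony 5. Of these chosen genes, 1 of the 4 in colony 6 and 3 of the 8 in colony 5 lay in the direction of choice. These fits were added after the signs had been seen. Of the 100 genes chosen over both colonies, 18 were among the 100 of colony 5 alone and 19 among the 100 of colony 6 alone.

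**Figure D4:**
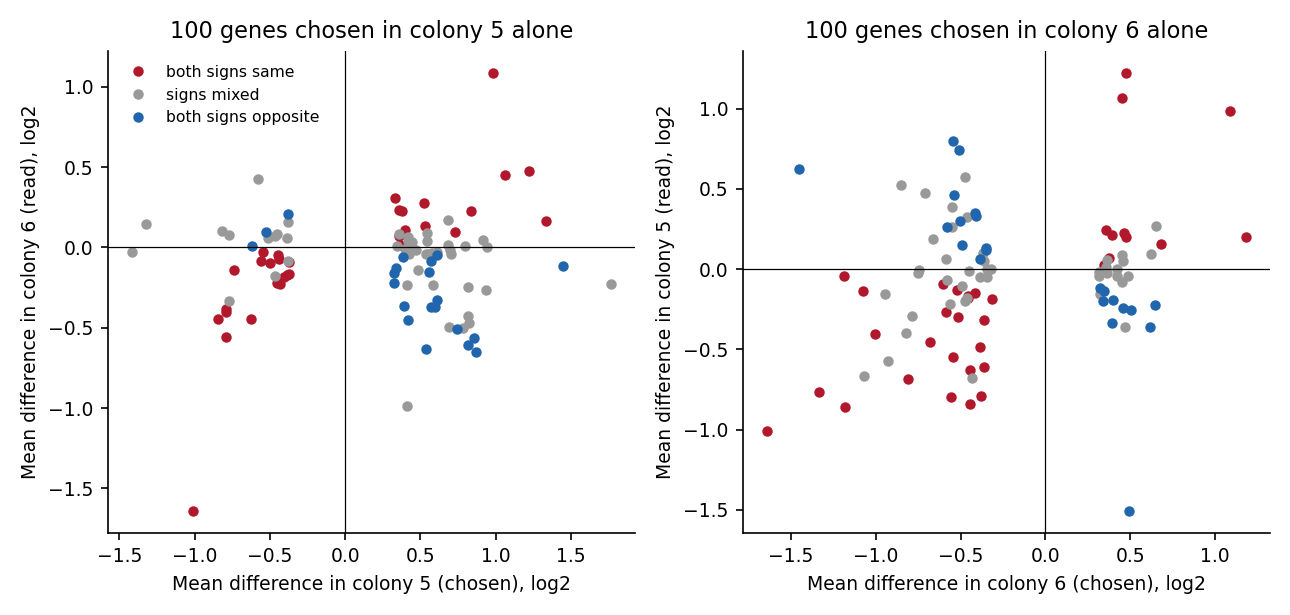
Each point is 1 of 100 genes chosen in colony 5 alone (left) or colony 6 alone (right), with the mean of its differences from nurses and guards in log2(CPM + 1) where it was chosen on the x axis and in the other colony on the y axis. Same signs were found for 33 genes on the left and 35 on the right, and opposite signs for 21 and 22.

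The same rule was run with each type in turn as the one set apart, over the same bees. Unresponsive bees had 4 differences of the same sign in 2360 of the 10341 genes, or 22.8%, nurses in 2818, or 27.3%, and guards in 4322, or 41.8%. The first 100 genes had a median smallest difference of 0.14 for unresponsive bees, 0.22 for nurses and 0.22 for guards, and the 100th gene stood at 0.11, 0.15 and 0.17 in the same order. A smallest difference of at least 0.25 was found in 10 genes for unresponsive bees, 39 for nurses and 34 for guards. Of the 3 types, unresponsive bees had the fewest such genes and the lowest median, although their first gene, at 0.80, stood above the first gene for guards, at 0.62. The 100 for unresponsive bees shared 8 genes with the 100 for nurses and 3 with the 100 for guards.

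Transfer between the colonies also differed by type. Genes chosen in colony 5 had the same signs in colony 6 in 33 of 100 cases for unresponsive bees, 50 for nurses and 55 for guards, where all genes of a shared sign gave 34.1%, 40.6% and 63.3%. Genes chosen in colony 6 had the same signs in colony 5 in 35, 51 and 42 cases, where all genes gave 39.9%, 44.7% and 51.1%, in the same order of types. Without each bee in turn, 7 genes stayed throughout for unresponsive bees, 15 for nurses and 17 for guards. The differences between the types in these counts were not tested.

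**Figure D5:**
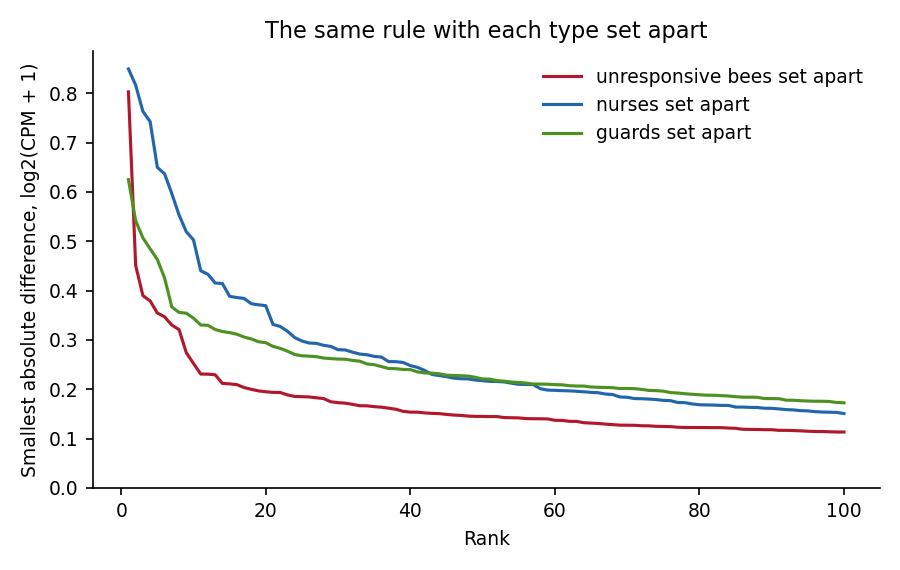
The smallest of the 4 absolute differences in log2(CPM + 1) is plotted against rank for the first 100 genes when unresponsive bees, nurses or guards are the type set apart. The line for unresponsive bees ends at 0.11, below nurses at 0.15 and guards at 0.17.

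The difference in level between the colonies was not used in the choice, since the rule compared types within each colony. Colony 6 against colony 5, with behavioural type as a term, called 28 of the 95 members tested by edgeR at an adjusted p of 0.05, 13 higher and 15 lower in colony 6. Over the 10948 genes 34.1% were called, 16.7% higher and 17.5% lower. The median size of the colony difference was 0.16 on the log2 scale over the members and 0.09 over all genes, with median SEs of 0.13 and 0.05. With DWV load as a further term the count was 15 of 95, 8 higher and 7 lower, where 17.6% of the 10948 genes were called.

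GB54410 rose in colony 6 with no overlap between the colonies. It ran from 22.7 through a median of 41.3 to 56.4 CPM in colony 6 and from 4.43 through 6.20 to 7.56 CPM in colony 5, a log2 difference of 2.63 ± 0.13 (SE) with an adjusted p of 2.96e-18 by edgeR. Its 3 types lay close together, with means of 40.6 ± 9.24 CPM in unresponsive bees, against 34.7 ± 10.6 CPM in nurses and 35.8 ± 14.6 CPM in guards of colony 6 (SD, n = 6 each). GB41096 fell in colony 6, to 2.22 ± 1.48 CPM there, against 8.15 ± 2.81 CPM in colony 5 (SD, n = 18 each), a log2 difference of -1.85 ± 0.28 (SE) with an adjusted p of 3.28e-06. The highest colony 6 bee, at 4.97 CPM, lay above the lowest colony 5 bee, at 3.76 CPM.

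GB43728 fell in colony 6 as well, to a mean of 12.4 ± 6.69 CPM there, against 22.4 ± 10.7 CPM in colony 5 (SD, n = 18 each), with an adjusted p of 0.00830 by edgeR. With DWV load as a term its adjusted p was 0.125. GB45796 was called higher in colony 6, with a log2 difference of 4.02 ± 1.16 (SE) and an adjusted p of 0.00704. Its medians were nearly equal, at 0.970 CPM in bees of colony 6 and 1.03 CPM in those of colony 5. The highest guard of colony 6 had 1209 CPM and the highest nurse 753 CPM, while no unresponsive bee exceeded 22.2 CPM. Without that guard the difference was 2.84 ± 1.03 (SE), with an adjusted p of 0.0328 by edgeR, and without both bees it was 1.97 ± 0.99 (SE), with an adjusted p of 0.130, in fits added after these values were seen. With DWV load as a term its adjusted p was 0.734.

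Virus load was no part of the rule either, but it went with type in each colony. In colony 5, high load was found in 6 of 6 unresponsive bees, 2 of 6 nurses and 5 of 6 guards. In colony 6 it was found in 0 of 6 unresponsive bees, 0 of 6 nurses and 3 of 6 guards. The load results of the members are therefore not independent of the choice. The slope of expression on log10 DWV load, with type and colony as terms, was called for 0 of the 95 members by edgeR, and for 0% of the 10948 genes. At an unadjusted p under 0.05 stood 7 of the members and 479 of all genes, and DESeq2 called 4 of 97 members, where 0.147% of 10190 genes were called. The median slope was -0.02 log2 units per log10 unit of load over the higher members and -0.000485 over the lower ones, against -0.000208 over all genes.

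The signs were also read in bees of like load. High-load bees of colony 5, which are 6 unresponsive bees, 2 nurses and 5 guards, and low-load bees of colony 6, which are 6 unresponsive bees, 6 nurses and 3 guards, were compared by the same 4 differences. All 12 unresponsive bees and all 6 colony 6 nurses stay in, so the colony 6 difference from nurses is unchanged by construction and the other 3 share bees with the choice. The signs held for 80 of the 100, 57 of 66 higher and 23 of 34 lower members, and 54 were still among the first 100. No such share over other genes is given here, so these counts describe the members alone. GB53119 kept its signs, with differences of 1.13 and 0.69 in colony 5 and 1.37 and 1.57 in colony 6, from nurses and from guards each time. GB53115, GB49504 and GB42557 did not. Of the 4 bees high in GB49504 the comparison drops Nurse 32 and keeps the other 3, and the colony 5 difference from nurses was 0.18, against -1.12 with all bees.

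Guards and nurses, the 2 responsive types, lay on no fixed side of each other for these genes. Guards had means above nurses in both colonies for 5 of the 34 lower members and below them in both for 12. Among the 66 higher members guards lay above nurses in both colonies for 12 and below in both for 22. The count model called 0 of the 95 members between guards and nurses, with 4 at an unadjusted p under 0.05, where 0.0913% of the 10948 genes were called. DESeq2 called 2 of 92 members, where 1.02% of 10445 genes were called. The choice used the same bees, so these counts are a description.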

How the data were processed

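RNA was measured in brain tissue of 36 bees. The deposited files hold raw read counts per gene ID, and their 5 summary rows (30.3% to 32.9% of counts) stayed out. Per the submitters' processing notes, the tools were CASAVA 1.8.2, HTSeq, SAMtools 0.1.19, Bowtie2 2.1.0 and TopHat2 2.0.10. Whether counting used strand is not stated there. Genes that share reads with near-identical copies could not be recognised.

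The rule for the 100 genes used Python 3.11.15 and plain CPM with a pseudocount of 1. Tests used R 4.3.3 and edgeR 4.0.16 (filterByExpr by type, TMM, robust quasi-likelihood fit over all 36 libraries, Benjamini-Hochberg over all genes, threshold 0.05). DESeq2 1.42.0 was an alternative. Standard errors are the log2 change divided by the root of F. The scripts were tested on simulated data. Named IDs were the first 2 members per direction with a mean of at least 4 CPM, for the colony test the 2 called members per direction with the largest change at that same floor, and for unresponsive bees the 2 per direction with the smallest p and no floor. The members and lists were chosen with earlier results of these data known. Alternatives covered scaling, pseudocount, filters, medians, single bees, virus load and the title number. Same-numbered libraries were checked for shared deviations: 21 of 36 pairs had a correlation over 0.1, from -0.18 to 0.36 with a median of 0.12. Deviations shared within a number are therefore possible. The labels do not say what the numbers mark, and the main fits did not use them as pairs. A fit with the number as a block was among the alternatives. No set of shuffled types was drawn.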

Additional observations from a re-analysis of the deposited data

Results flagged for a closer look

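Single bees far from the other 5 of their type and colony were looked for in the CPM of GB53119, GB53115, GB49504 and GB42557. Of 24 groups, 18 held such a bee, where chance flags about 1 in 20 groups of normal, independent values. CPM near 0 are not normal, and these genes were picked for large differences and vary together in pairs, so that rate does not apply to them. A group with 2 or more high bees cannot be marked in this way.

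For GB49504 these were Nurse 32 at 111 CPM, Nurse 230 at 39.5 CPM, Guard 205 at 23.9 CPM, Guard 5 at 13.7 CPM, Unresponsive 230 at 3.24 CPM and Unresponsive 35 at 0.876 CPM. For GB42557 they were Nurse 32 at 97.0 CPM, Nurse 230 at 22.9 CPM, Guard 205 at 15.3 CPM, Guard 5 at 13.1 CPM and Unresponsive 230 at 2.64 CPM.

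For GB53119 they were Guard 5 at 19.5 CPM, Guard 230 at 12.4 CPM, Nurse 205 at 11.0 CPM and Nurse 32 at 9.80 CPM. For GB53115 they were Guard 222 at 49.1 CPM, Guard 19 at 16.7 CPM and Nurse 32 at 8.51 CPM.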

How the results depend on the processing

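Of the 100 genes, 64 stayed when a mean of 4 CPM was required, which removes the other 36, 42 with group medians, 54 with bees of like virus load and 55 with the mean of the middle 4 bees, the last added after the data were seen; the causes were not tested. TMM scaling, a pseudocount of 0.5, no filter or leaving out the libraries numbered 213 kept 77 to 90. Without single bees 70 to 94 stayed, and genes with 4 equal signs numbered 2048 to 2611, against 2360. Transfer from colony 5 gave 22% with medians against 33% with means, and 29% to 36% with other scaling, pseudocount, filters or without the libraries numbered 213. The colony call of 28 members was 15 with virus load as a term, and that of all genes was 1929, against 3737. DESeq2 called 2 members between guards and nurses and 4 for the virus slope, where edgeR called 0; over all genes it called 107 between guards and nurses, against 10. With the title number as a replicate block the 100 genes and the 2360 were unchanged, since each number holds all 3 types, and 0 members were called for unresponsive bees, guards against nurses or the virus slope, with 38 of all genes between guards and nurses; 15 of 36 bees correlated best with a bee of their own number. In the shallowest library 1 CPM is 16.2 counts. Without its 2 highest bees GB45796 no longer passed between colonies (1.97, against 4.02 with all bees).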
